A study of Mus musculus with 12 samples.

Results

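The clade B serpins of the epidermis were followed across 12 bulk RNA-seq libraries of mouse ear skin. The 9 genes, Serpinb2, Serpinb3a, Serpinb3b, Serpinb3c, Serpinb3d, Serpinb5, Serpinb7, Serpinb8 and Serpinb12, were taken by symbol from a table of 24532 genes. Of these 9, 7 passed the filter on low counts and were tested among 16466 genes, and Serpinb3c and Serpinb3d did not pass. The series asked how the microbiota changes the transcriptome of skin with inflammation of the atopic dermatitis type. Skin came from mice housed free of specific pathogens (SPF) or germ-free (GF), the latter without a microbiota, and was treated with ethanol alone, the vehicle, or with MC903. MC903, also named calcipotriol, is an analogue of vitamin D that inflames mouse skin when applied to it. Each of the 4 groups, SPF ethanol, SPF MC903, GF ethanol and GF MC903, held 3 libraries, numbered 1, 2 and 3 under SPF housing and 1, 4 and 5 under GF housing. The strain was given as C57BL/6 for 9 libraries and as C57BL/7, C57BL/8 and C57BL/9 for GF MC903 4, GF ethanol 5 and GF MC903 5. No age, sex or genetic change was given, and the labels do not state that replicates were separate mice, so p-values measure only the spread between these libraries.

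Serpins inhibit proteases through an exposed reactive centre loop, which the protease cuts as bait and is then trapped by a change in the shape of the serpin. Members of clade B lack a classical signal peptide and act mostly inside the cell, and several are abundant in the keratinocytes of stratified epithelia. Human SERPINB3 and SERPINB4, the squamous cell carcinoma antigens, are known to be raised in the lesions of atopic dermatitis and psoriasis. Inherited loss of human SERPINB7 causes a palmoplantar keratosis, and loss of SERPINB8 causes a peeling skin disorder.

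All 9 genes lay in 1 cluster on chromosome 1, which spanned 748 kb in GRCm38 (mm10) and held 12 protein-coding genes, all clade B serpins. The members were, in order along the chromosome, Serpinb5 (gene identifier 20724, chr1:106861175-106883348), Serpinb12 (71869, chr1:106934449-106957080), Serpinb3a (20248, chr1:107045587-107052303), Serpinb3d (394252, chr1:107078163-107083480), Serpinb3b (383548, chr1:107153961-107161114), Serpinb3c (381286, chr1:107271201-107278371), Serpinb7 (116872, chr1:107422689-107452689), Serpinb2 (18788, chr1:107500892-107525600) and Serpinb8 (20725, chr1:107589926-107608978). Serpinb13, Serpinb11 and Serpinb10 lay between them.

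The 4 Serpinb3 genes are close copies, which bears on how far their reads can be told apart. Their coding sequences were 86.3% to 93.1% identical over 6 pairs, whereas the other 30 pairs of members were 51.4% to 58.4% identical. Serpinb3a and Serpinb3b, the only copies with appreciable counts, had 92.9% identical coding sequences and 77% identical upstream sequences. Of all 50-base stretches of the Serpinb3a transcript, 5.35% also occurred in Serpinb3b, and of all 100-base stretches 0%. No read length is stated in these sources, so the reads shared by the copies could not be counted, and the split of counts among them is uncertain. The coding bases 988 to 1077 of both genes, from GENCODE transcripts, lie before the conserved carboxy-terminal end and encode the region of the reactive centre loop, the part that decides which protease is bound. The copies differed at 4 of these 90 bases, given in capitals. Taken over all 90 bases, the stretch was therefore not less alike than the whole coding sequences, which were 92.9% identical. The 4 differences were not spread over the whole stretch, and their effect on the binding of a protease was not tested.
Serpinb3a: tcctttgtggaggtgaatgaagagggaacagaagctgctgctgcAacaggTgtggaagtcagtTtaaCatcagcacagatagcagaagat
Serpinb3b: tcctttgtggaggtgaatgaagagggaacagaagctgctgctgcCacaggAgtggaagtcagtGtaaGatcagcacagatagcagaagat

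The 250 bases before the RefSeq start of transcription (GRCm38.p6) were searched on both strands for 4 motifs. The AP-1 search used TGANTCA, a loose pattern with any middle base. The STAT6 search used TTC and GAA with any 4 bases between them. The others were the Grainyhead motif AACCGGTT and the DR3 vitamin D response element. Of the 9 members, 5 held a match to this loose AP-1 pattern, each of them outside the Serpinb3 copies. Of all 32841 windows of this length, 6.75% held one. Both counts allowed any middle base, and the members did not share 1 form of the motif. The match read TGAGTCA in Serpinb7 and Serpinb8, TGAATCA in Serpinb2 and Serpinb5 and TGATTCA in Serpinb12. The 4 Serpinb3 copies held 0 matches to any of the 4 motifs. The match ended 88 bases before the start in Serpinb2, 134 in Serpinb5, 39 in Serpinb7 and in Serpinb12 and 17 in Serpinb8. The second annotated start of Serpinb2 shared the match of the first, and that of Serpinb12 held none. Serpinb7 also held 2 STAT6 matches, a motif present in 5.85% of windows. A match describes the letters only, and a match to the loose pattern need not be an AP-1 site. Binding was not measured. The windows are shown because the genes share a cluster and a match to the AP-1 search but differed in their response. AP-1 and STAT6 matches are in capitals.
Serpinb2, chr1:107511173-107511422, plus strand: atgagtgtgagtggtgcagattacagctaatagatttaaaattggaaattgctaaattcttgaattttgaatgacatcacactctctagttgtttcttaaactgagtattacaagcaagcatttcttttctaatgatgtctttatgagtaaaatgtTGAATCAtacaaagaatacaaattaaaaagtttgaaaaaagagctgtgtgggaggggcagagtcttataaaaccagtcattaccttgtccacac
Serpinb5, chr1:106860925-106861174, plus strand: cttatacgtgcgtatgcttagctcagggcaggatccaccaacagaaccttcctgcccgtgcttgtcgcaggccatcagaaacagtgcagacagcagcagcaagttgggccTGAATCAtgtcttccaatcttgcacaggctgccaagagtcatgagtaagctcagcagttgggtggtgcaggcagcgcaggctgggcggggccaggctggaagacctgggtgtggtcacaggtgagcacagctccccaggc
Serpinb7, chr1:107422439-107422688, plus strand: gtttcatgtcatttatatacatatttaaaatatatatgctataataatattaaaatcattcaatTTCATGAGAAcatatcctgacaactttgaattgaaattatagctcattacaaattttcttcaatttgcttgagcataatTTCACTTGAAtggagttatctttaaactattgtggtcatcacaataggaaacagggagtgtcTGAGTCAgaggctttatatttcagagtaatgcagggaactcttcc
Serpinb8, chr1:107589756-107590005, plus strand: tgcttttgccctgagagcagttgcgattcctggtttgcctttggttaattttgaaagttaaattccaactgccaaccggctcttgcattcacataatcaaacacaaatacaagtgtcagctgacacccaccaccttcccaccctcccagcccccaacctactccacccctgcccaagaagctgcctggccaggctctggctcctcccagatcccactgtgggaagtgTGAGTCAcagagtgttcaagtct
Serpinb12, chr1:106934199-106934448, plus strand: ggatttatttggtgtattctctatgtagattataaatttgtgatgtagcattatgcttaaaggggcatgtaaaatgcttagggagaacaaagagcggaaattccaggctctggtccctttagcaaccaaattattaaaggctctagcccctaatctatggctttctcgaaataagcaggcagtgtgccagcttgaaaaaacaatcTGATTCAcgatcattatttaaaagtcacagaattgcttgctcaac
The windows of the expressed Serpinb3 copies, which held no match, are shown beside them.
Serpinb3a, chr1:107052304-107052553, minus strand: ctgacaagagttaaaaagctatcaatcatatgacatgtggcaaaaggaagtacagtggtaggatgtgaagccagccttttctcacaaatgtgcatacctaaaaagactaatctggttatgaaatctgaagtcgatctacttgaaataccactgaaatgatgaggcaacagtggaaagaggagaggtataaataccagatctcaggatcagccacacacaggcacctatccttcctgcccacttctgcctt
Serpinb3b, chr1:107161115-107161364, minus strand: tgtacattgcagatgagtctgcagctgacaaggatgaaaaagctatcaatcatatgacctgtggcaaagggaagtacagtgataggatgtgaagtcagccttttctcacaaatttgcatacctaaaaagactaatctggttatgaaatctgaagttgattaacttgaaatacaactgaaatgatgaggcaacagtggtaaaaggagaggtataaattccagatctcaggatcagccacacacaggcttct

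Libraries held 36358294 to 48225425 counts. Expression below is in CPM, the counts of a gene relative to the total of its library, on library sizes scaled by TMM, edgeR's trimmed mean of M-values, with mean ± SD over 3 libraries. The TMM factors separated the treatments, at 1.16 to 1.25 with ethanol and 0.806 to 0.836 with MC903. Without them, on library totals, the median log2 change of all genes moved by -0.58 in the SPF response and -0.51 in the GF response, and by 0.06 in their difference. A small change with MC903 in either housing therefore depends on the scaling, and values on library totals are given where the call or direction turned. In bulk skin, fewer cells of a type and less RNA per cell cannot be told apart.

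Compared per transcript length, in the FPKM that the authors deposited, Serpinb5 was the most abundant member in every group, with means of 197 in SPF ethanol, 166 in SPF MC903, 200.2 in GF ethanol and 179 in GF MC903. In SPF ethanol skin the order then ran Serpinb2 at 81.4 FPKM, Serpinb3b at 68.2, Serpinb12 at 65.3, Serpinb7 at 58.4, Serpinb8 at 39.5 and Serpinb3a at 2.66. Neighbours from Serpinb2 down to Serpinb7 overlapped between libraries, and the other steps did not. With MC903 in SPF skin Serpinb2 held the second place at 113 FPKM, followed by Serpinb8 at 33.3, Serpinb3b at 30.1 and Serpinb7 at 19.1, which overlapped, and then by Serpinb12 at 8.60 and Serpinb3a at 4.39, which also overlapped. With MC903 in GF skin the second place was held by Serpinb3b at 61.4 FPKM, then came Serpinb2 at 38.4, Serpinb12 at 27.7, Serpinb8 at 27.2, Serpinb7 at 15.8 and Serpinb3a at 9.62. Of these, only Serpinb12 and Serpinb8 overlapped. In GF ethanol skin Serpinb2 and Serpinb3b stood at 68.1 and 68.0 FPKM and overlapped, Serpinb7 and Serpinb12 at 52.8 and 49.95 and overlapped, and Serpinb8 at 34.7 and Serpinb3a at 2.63 stood apart.

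The shares of the summed FPKM of the 9 members do not depend on the scaling of libraries. Serpinb2 made up 15.9% ± 0.783 (SD, n = 3) of the sum in SPF ethanol, 29.8% ± 3.84 in SPF MC903, 14.2% ± 1.92 in GF ethanol and 10.7% ± 0.0376 in GF MC903. Serpinb12 made up 12.7% ± 1.97, 2.24% ± 0.796, 10.5% ± 0.404 and 7.71% ± 0.482 in the same order. Serpinb2 thus took its largest share, and Serpinb12 its smallest, in SPF skin treated with MC903.

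**Figure D1:**
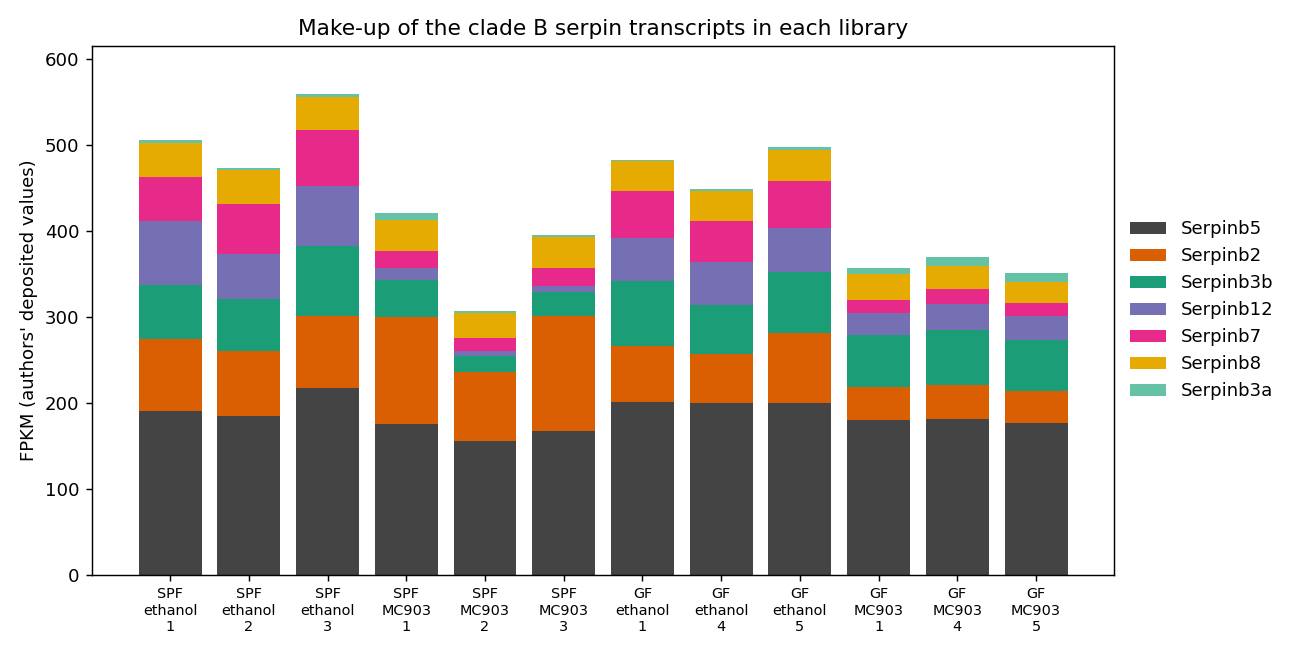
Stacked bars give the FPKM deposited for each clade B serpin (y axis, FPKM) in each of the 12 libraries (x axis). Serpinb5 is the largest part throughout, and Serpinb2 takes 29.8% on average in SPF MC903 against 10.7% in GF MC903.

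With MC903 in SPF skin all 7 tested members passed the test, 4 upward and 3 downward, beside 73.8% of all genes tested (35% upward and 38.8% downward). The median log2 fold change of the members was 0.32, against -0.10 over all genes. Serpinb2 and Serpinb3a rose, Serpinb12, Serpinb7 and Serpinb3b fell, and Serpinb5 and Serpinb8 were higher with TMM scaling but lower on library totals. On library totals 6 members passed, 1 upward and 5 downward, beside 3127 upward and 10106 downward of 16466 genes. The share of upward calls over all genes moved from 47.4% to 23.6%. With MC903 in GF skin 3 members passed, Serpinb3a and Serpinb5 upward and Serpinb7 downward, beside 68.5% of all genes (33.4% upward and 35.1% downward), and 4 had an unadjusted p under 0.05. The median log2 fold change of the members was 0.17, against -0.07 over all genes. The CPM of the treatments did not overlap for 6 of the 7 members in SPF skin, beside 76.7% of all genes, and for 6 in GF skin, beside 74% of all genes. On library totals 6 passed in GF skin, 1 upward and 5 downward, beside 2795 upward and 9697 downward of 16466 genes. The share of upward calls over all genes moved from 48.8% to 22.4%.

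The GF response minus the SPF response was tested as an interaction, and 3 members passed, beside 17% of all genes (7.75% upward and 9.26% downward). Serpinb12 and Serpinb3b had a higher response in GF skin, and Serpinb2 a lower one. On library totals the same number, 3, passed, beside 1656 higher and 1151 lower of 16466 genes. Between housings with ethanol, 0 members passed in edgeR, beside 22% of all genes, with 0 at an unadjusted p under 0.05 and 0 in DESeq2. Between housings with MC903, 4 members passed, Serpinb12 and Serpinb3b higher in GF skin and Serpinb2 and Serpinb8 lower, beside 41.7% of all genes (20.8% higher and 20.9% lower). The CPM of the housings with MC903 did not overlap for 5 of the 7 members, beside 50.6% of all genes. These comparisons share groups, so their values below are set side by side and are not independent.

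**Figure D2:**
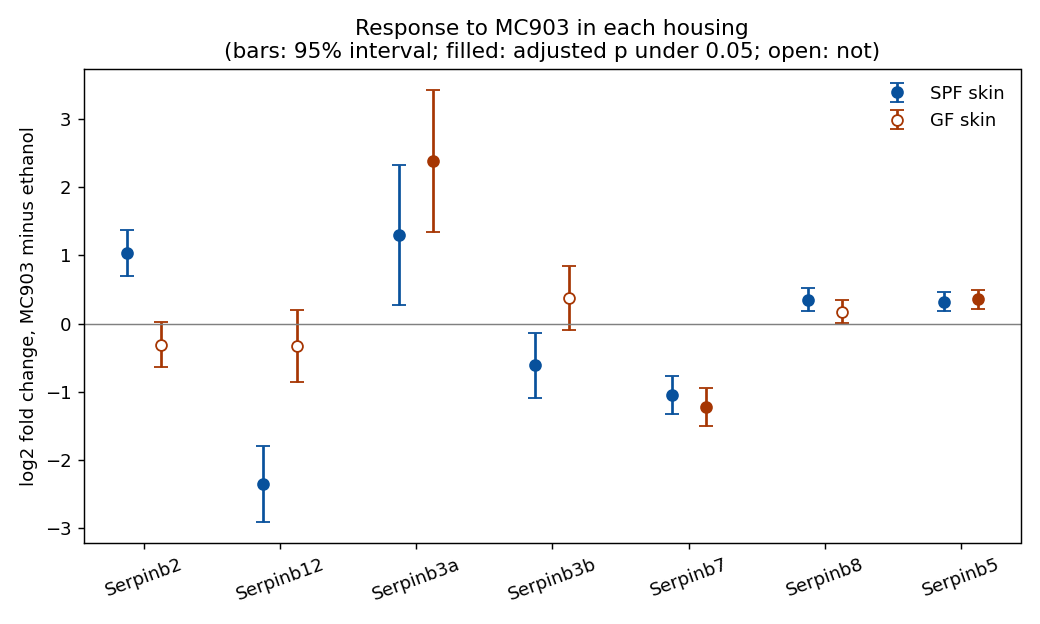
The log2 fold change of MC903 against ethanol (y axis) is given for each tested member (x axis) in SPF and GF skin, with 95% intervals and filled points for an adjusted p under 0.05. Serpinb2 stands at 1.04 in SPF and -0.31 in GF skin and Serpinb12 at -2.35 and -0.33, while on library totals Serpinb5 and Serpinb8 turn to -0.25 and -0.22 in SPF skin and to -0.15 and -0.34 in GF skin.

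Serpinb2, or plasminogen activator inhibitor type 2, inhibits urokinase and is made by differentiating keratinocytes and by macrophages. Its CPM were 137, 126 and 139 in SPF ethanol 1 to 3 and 302, 201 and 323 in SPF MC903 1 to 3. They were 110, 99.5 and 139 in GF ethanol 1, 4 and 5 and 94.2, 96.7 and 91.2 in GF MC903 1, 4 and 5. All 3 SPF MC903 libraries lay above every other library, and all 3 GF MC903 libraries lay below every other library. The mean rose from 134 ± 7.00 to 275 ± 64.9 CPM in SPF skin, a log2 fold change of 1.04 ± 0.155 (SE; adjusted p = 5.49e-05, edgeR). In GF skin the means were 116 ± 20.4 and 94.1 ± 2.76 CPM, with a log2 fold change of -0.31 (95% interval -0.64 to 0.03; adjusted p = 0.0954). The responses differed by -1.34 ± 0.218 on the log2 scale (adjusted p = 0.00168), and over 19 alternatives this difference stayed between -1.53 and -1.20 with an adjusted p of at most 0.00601. With MC903, Serpinb2 was 2.93-fold lower in GF than in SPF skin (adjusted p = 1.52e-05), and with ethanol the log2 difference was -0.21 (adjusted p = 0.359). The small GF change was called on library totals (-0.82, adjusted p = 0.000662), with only the GF libraries fitted (adjusted p = 0.039), with a length trend removed (adjusted p = 0.0214) and without SPF MC903 2 (adjusted p = 0.0194).

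Serpinb12 inhibits trypsin-like serine proteases. Its CPM were 102, 72.1 and 95.5 in SPF ethanol 1 to 3 and 27.5, 11.6 and 13.9 in SPF MC903 1 to 3. In GF ethanol 1, 4 and 5 they were 69.3, 72.4 and 73.8, and in GF MC903 1, 4 and 5 they were 52.0, 61.9 and 57.5. The treatments did not overlap in either housing, and the 3 SPF MC903 libraries were far below all others. In SPF skin the mean fell from 89.99 ± 15.8 to 17.7 ± 8.55 CPM, a log2 fold change of -2.35 ± 0.256 (adjusted p = 3.28e-06, edgeR). In GF skin the means were 71.8 ± 2.29 and 57.1 ± 4.96 CPM, with a log2 fold change of -0.33 (95% interval -0.86 to 0.20; adjusted p = 0.242). The response was 2.01 ± 0.347 higher on the log2 scale in GF skin (adjusted p = 0.00234), and over 19 alternatives it lay between 1.78 and 2.49 with an adjusted p of at most 0.00791. With MC903, Serpinb12 was 3.23-fold higher in GF skin (adjusted p = 0.000224), and with ethanol the log2 difference was -0.33 (adjusted p = 0.358). The GF fall was called on library totals (-0.84, adjusted p = 0.00873), with only the GF libraries fitted (adjusted p = 0.00395), with a length trend removed (-0.62, adjusted p = 0.0431) and without SPF MC903 1 (adjusted p = 0.0311).

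**Figure D3:**
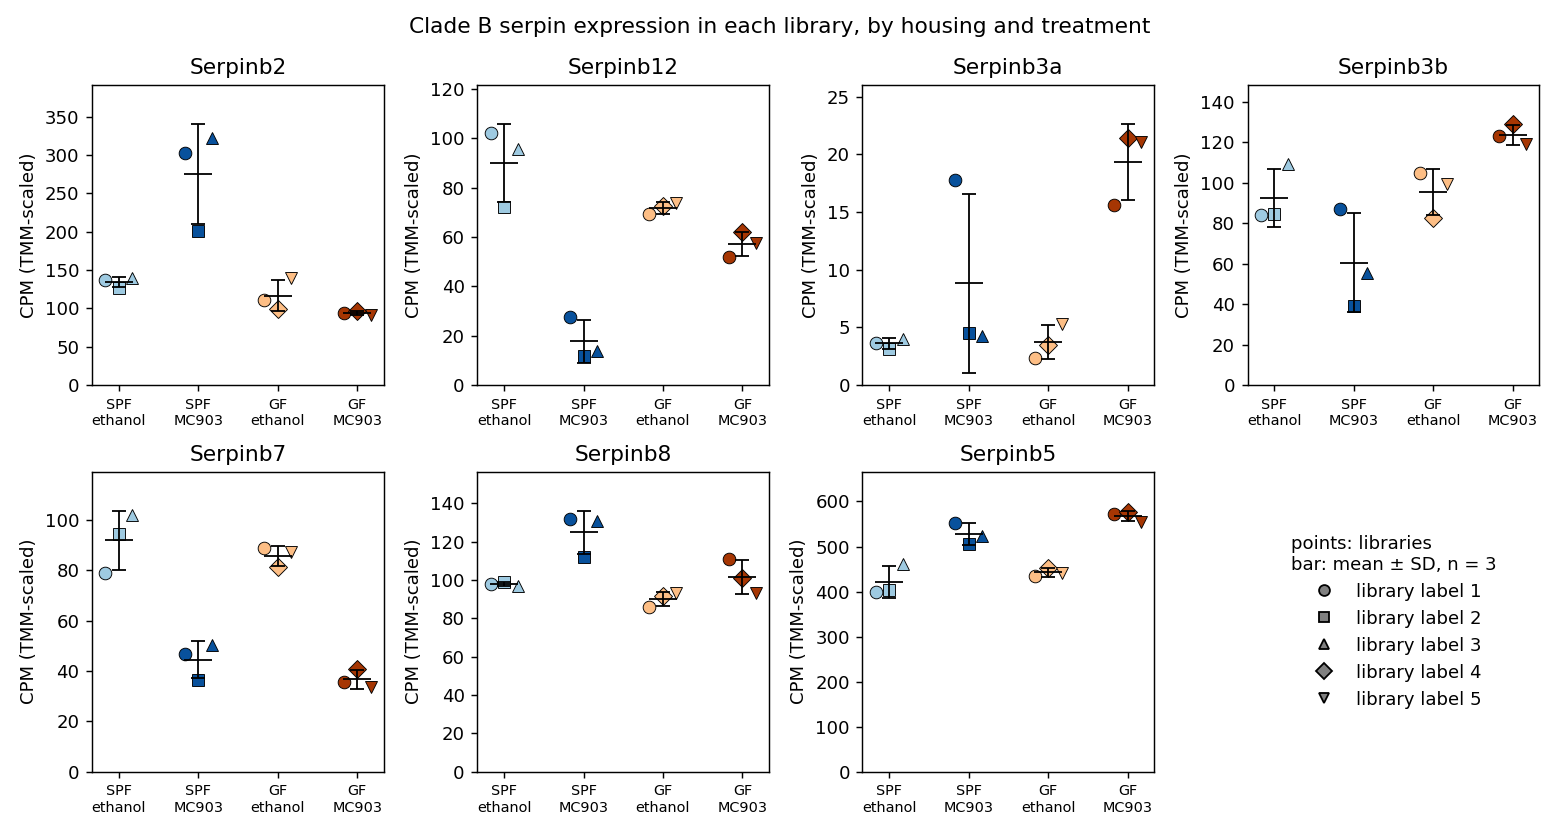
Each panel gives the CPM of 1 tested member (y axis, TMM-scaled) in the 4 groups (x axis), with a point for each library and the mean ± SD. Serpinb2 reaches 201 to 323 in SPF MC903 and 91.2 to 96.7 in GF MC903, and Serpinb12 11.6 to 27.5 against 52.0 to 61.9.

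Serpinb3a, a mouse copy related to the human squamous cell carcinoma antigens, was low with ethanol. Its CPM were 3.67, 3.13 and 4.02 in SPF ethanol 1 to 3 and 17.8, 4.50 and 4.21 in SPF MC903 1 to 3. In GF ethanol 1, 4 and 5 they were 2.39, 3.44 and 5.29, and in GF MC903 1, 4 and 5 they were 15.6, 21.4 and 21.1. All 3 GF MC903 libraries were far above both ethanol groups, whereas in SPF MC903 only library 1 was. In GF skin the mean rose from 3.71 ± 1.47 to 19.4 ± 3.27 CPM, a log2 fold change of 2.39 ± 0.477 (adjusted p = 0.000707, edgeR), and the call held in all 19 alternatives. In SPF skin the log2 fold change was 1.30 ± 0.472 (adjusted p = 0.025), from 3.61 ± 0.446 to 8.82 ± 7.74 CPM, and it rested on 1 library. Without SPF MC903 1 it was 0.27 (adjusted p = 0.386), and it was also not called without SPF ethanol 1 (adjusted p = 0.0574), without SPF ethanol 2 (adjusted p = 0.0727), with a length trend removed (adjusted p = 0.0758) or on library totals (0.73, adjusted p = 0.174). The responses differed by 1.09 (95% interval -0.34 to 2.52; adjusted p = 0.296), and without SPF MC903 1 by 2.11 (adjusted p = 0.00283). With MC903 the log2 difference between housings was 1.12 (adjusted p = 0.0654), and without SPF MC903 1 it was 2.15 (adjusted p = 0.000164).

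Serpinb3b had 84.0, 84.4 and 109 CPM in SPF ethanol 1 to 3 and 87.0, 39.1 and 55.5 CPM in SPF MC903 1 to 3. It had 105, 82.5 and 99.1 CPM in GF ethanol 1, 4 and 5 and 123, 129 and 119 CPM in GF MC903 1, 4 and 5. All GF MC903 libraries were above all others, and SPF MC903 1 lay within the range of SPF ethanol while the other 2 were below it. In SPF skin Serpinb3b fell by 0.61 ± 0.219 on the log2 scale (adjusted p = 0.0234, edgeR), with means of 92.5 ± 14.3 and 60.5 ± 24.4 CPM. This call was lost with only the SPF libraries fitted (adjusted p = 0.0641) and without SPF MC903 2 (-0.37, adjusted p = 0.0785), SPF MC903 3 (adjusted p = 0.0743) or SPF ethanol 3 (adjusted p = 0.0979), and without SPF MC903 1 the value was -0.97 (adjusted p = 0.000212). In GF skin the means were 95.4 ± 11.5 and 124 ± 4.93 CPM, with a log2 fold change of 0.37 (95% interval -0.10 to 0.85; adjusted p = 0.144) that turned to -0.14 (adjusted p = 0.587) on library totals. It was called with only the GF libraries fitted (adjusted p = 0.00534) and without SPF MC903 1 (adjusted p = 0.0317). The responses differed by 0.99 ± 0.309 (adjusted p = 0.0467), but the call was lost in 11 of 12 fits without 1 library, at adjusted p from 0.0525 to 0.109. Only without SPF MC903 1 was it kept (1.34, adjusted p = 0.0017), and it was lost without the filter (adjusted p = 0.0588) and with a length trend removed (adjusted p = 0.0607). With MC903 Serpinb3b was higher in GF skin by 1.03 ± 0.220 on the log2 scale (adjusted p = 0.00262), and with ethanol the difference was 0.04 (adjusted p = 0.909).

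Serpinb3c had 0 counts in all 3 SPF ethanol libraries, 11, 2 and 0 in SPF MC903 1 to 3, 0, 2 and 0 in GF ethanol 1, 4 and 5, and 0, 5 and 0 in GF MC903 1, 4 and 5. Serpinb3d had 0 counts in both ethanol groups, 2, 0 and 2 in SPF MC903 1 to 3 and 5, 0 and 0 in GF MC903 1, 4 and 5. Both were at or near 0 throughout, and 3 counts, the limit that a count of 0 allows, corresponded to 0.0553 to 0.0987 CPM per library, so a difference between groups was not detectable at this depth.

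Because the copies may exchange reads, their counts were also summed. The sum changed by -0.47 (adjusted p = 0.0943, edgeR) on the log2 scale in SPF skin and by 0.53 (adjusted p = 0.0645) in GF skin, and the responses differed by 0.997 (adjusted p = 0.0626). With MC903 the summed copies were 2.06-fold higher in GF skin (adjusted p = 0.00416), and with ethanol the log2 difference was 0.04 (adjusted p = 0.916). The difference between housings with MC903 was thus kept in the sum, where the copies need not be told apart. Serpinb3b supplied most of these counts, 6693 in SPF MC903 and 13134 in GF MC903, beside 1014 and 2055 of Serpinb3a. The sum is therefore not a result independent of Serpinb3b.

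The share of Serpinb3a in the counts of the 4 copies is also free of the scaling of libraries. It was 4.18%, 3.58% and 3.56% in SPF ethanol 1 to 3 and 16.9%, 10.3% and 7.05% in SPF MC903 1 to 3. It was 2.23%, 4.0% and 5.07% in GF ethanol 1, 4 and 5 and 11.2%, 14.2% and 15.0% in GF MC903 1, 4 and 5. Every MC903 library was above every ethanol library in both housings, while SPF and GF overlapped under each treatment. A higher share need not be a higher level of Serpinb3a. In SPF MC903 2 and 3 Serpinb3a was at 4.50 and 4.21 CPM, against 3.13 to 4.02 in SPF ethanol. Serpinb3b was at 39.1 and 55.5 CPM there, against 84.0 to 109. The split of counts among the copies is uncertain, as stated above. The group means were 3.77% ± 0.354, 11.4% ± 5.01, 3.77% ± 1.43 and 13.5% ± 2.0. Serpinb3b remained the larger copy per length, with 25.6, 8.91, 28.9 and 6.52 times the FPKM of Serpinb3a on average in SPF ethanol, SPF MC903, GF ethanol and GF MC903.

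**Figure D4:**
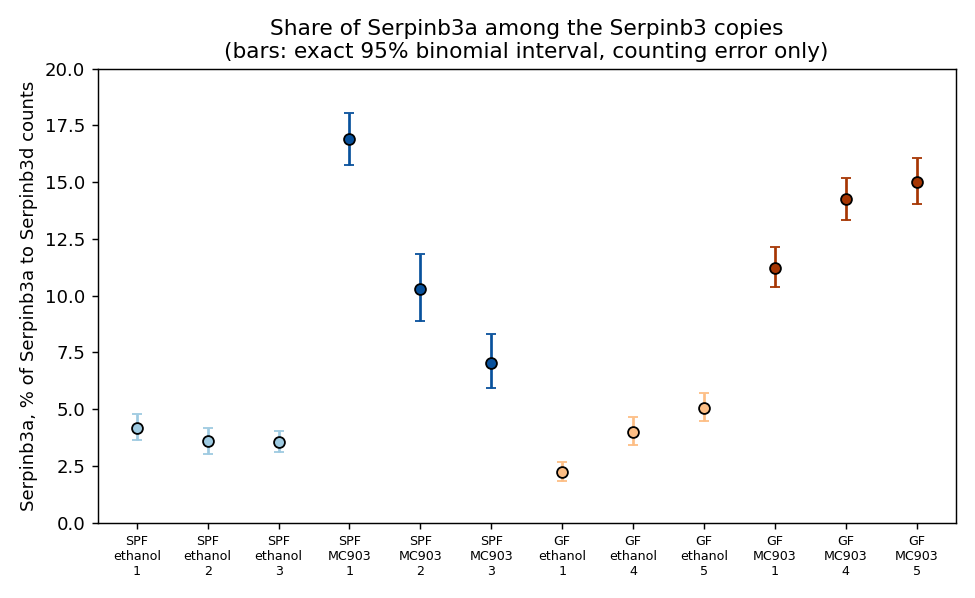
Serpinb3a as a percent of the counts of Serpinb3a to Serpinb3d (y axis) is given for each of the 12 libraries (x axis), with exact (Clopper-Pearson) 95% binomial intervals that cover counting error only. Ethanol libraries lie between 2.23% and 5.07% and MC903 libraries between 7.05% and 16.9%.

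Serpinb7, a clade B serpin concentrated in the upper epidermis, fell with MC903 in both housings. It had 78.9, 94.5 and 102 CPM in SPF ethanol 1 to 3 and 46.8, 36.4 and 50.3 CPM in SPF MC903 1 to 3. It had 88.8, 81.2 and 87.3 CPM in GF ethanol 1, 4 and 5 and 35.7, 40.9 and 33.5 CPM in GF MC903 1, 4 and 5. The treatments did not overlap in either housing, and the housings overlapped under each treatment. Serpinb7 fell by 1.04 ± 0.125 on the log2 scale in SPF skin (adjusted p = 7.86e-06, edgeR), from 91.8 ± 11.7 to 44.5 ± 7.23 CPM, and by 1.22 ± 0.126 in GF skin (adjusted p = 2.92e-06), from 85.8 ± 4.01 to 36.7 ± 3.81 CPM. Both calls held in all 20 alternatives. The responses differed by -0.18 (95% interval -0.56 to 0.20; adjusted p = 0.539). Between housings with MC903 the log2 difference was -0.28 (adjusted p = 0.0956), and it was called with a length trend removed (adjusted p = 0.0404) and without SPF MC903 2 (-0.40, adjusted p = 0.0146).

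Serpinb5, or maspin, is a clade B serpin that does not inhibit proteases and is known from epithelial adhesion. It had 399, 403 and 461 CPM in SPF ethanol 1 to 3 and 553, 505 and 524 CPM in SPF MC903 1 to 3. It had 434, 453 and 441 CPM in GF ethanol 1, 4 and 5 and 572, 577 and 555 CPM in GF MC903 1, 4 and 5. The MC903 libraries were above the ethanol libraries in both housings on this scale. With TMM scaling the log2 fold change was 0.32 ± 0.0647 in SPF skin (adjusted p = 0.000593, edgeR), and on library totals it turned to -0.25 (adjusted p = 0.00335). In GF skin it was 0.36 ± 0.0647 (adjusted p = 0.000314), and on library totals it turned to -0.15 (adjusted p = 0.05). The responses differed by 0.04 (95% interval -0.16 to 0.23; adjusted p = 0.836).

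Serpinb8 inhibits furin and other serine proteases. It had 97.6, 98.8 and 96.9 CPM in SPF ethanol 1 to 3 and 132, 112 and 131 CPM in SPF MC903 1 to 3. It had 85.7, 91.4 and 92.9 CPM in GF ethanol 1, 4 and 5 and 111, 101 and 92.9 CPM in GF MC903 1, 4 and 5. SPF MC903 libraries were the highest, while the GF treatments met at 92.9 CPM. In SPF skin the log2 fold change was 0.35 ± 0.0776 (adjusted p = 0.00125, edgeR) with TMM scaling and turned to -0.22 (adjusted p = 0.0235) on library totals. In GF skin it was 0.17 (adjusted p = 0.0639) and turned to -0.34 (adjusted p = 0.00225) on library totals. The GF value was called as higher with RLE size factors (adjusted p = 0.0478), with a length trend removed (adjusted p = 0.0119), without SPF MC903 2 (adjusted p = 0.0363) and without GF MC903 5 (0.23, adjusted p = 0.0258). The responses differed by -0.18 (95% interval -0.42 to 0.06; adjusted p = 0.304). With MC903 Serpinb8 was lower in GF skin, with a log2 difference of -0.30 ± 0.0777 (adjusted p = 0.00862), and it was the only member whose ethanol libraries did not overlap between housings (log2 difference -0.12, adjusted p = 0.292), beside 43.9% of all genes.

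Across the cluster, neighbouring genes did not share 1 response. From Serpinb5 to Serpinb8 along the chromosome, log2 fold changes in SPF skin ran 0.32 for Serpinb5, -2.35 for Serpinb12, -1.62 for Serpinb13 (adjusted p = 0.01), 1.30 for Serpinb3a, -0.61 for Serpinb3b, 2.56 for Serpinb11 (adjusted p = 3.73e-09), -1.04 for Serpinb7, 1.04 for Serpinb2, -0.62 for Serpinb10 (adjusted p = 0.0179) and 0.35 for Serpinb8. In GF skin they ran 0.36, -0.33, 0.54 (adjusted p = 0.312), 2.39, 0.37, 1.53 (adjusted p = 4.28e-07), -1.22, -0.31, -0.82 (adjusted p = 0.00389) and 0.17 in the same order. Rises and falls were interspersed along the cluster in SPF skin, and the values of Serpinb5 and Serpinb8 turned negative on library totals in both housings, as did that of Serpinb3b in GF skin.

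**Figure D5:**
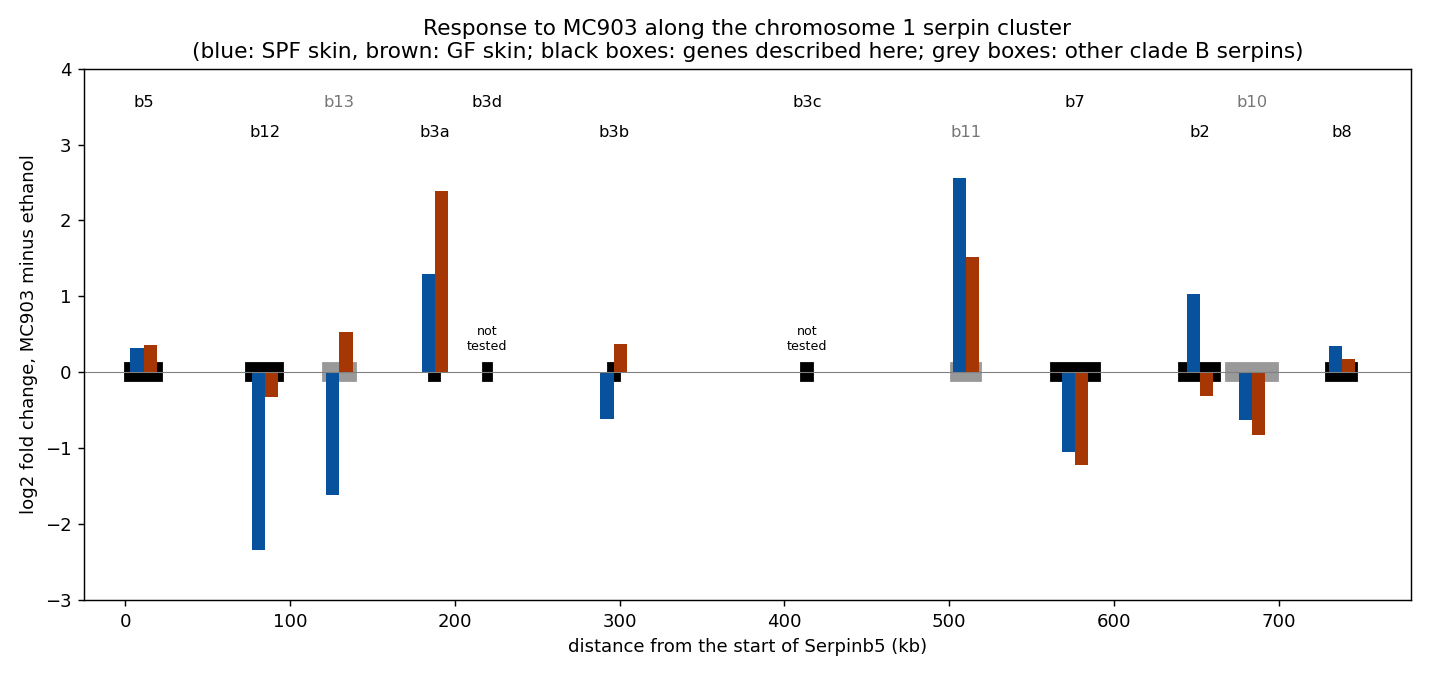
The log2 fold change of MC903 against ethanol (y axis) in SPF and GF skin is placed by distance from the start of Serpinb5 in kb (x axis), with boxes for the genes of the cluster. Values in SPF skin run from -2.35 at Serpinb12 to 2.56 at Serpinb11, and those of Serpinb5 and Serpinb8 turn negative on library totals in both housings, as does that of Serpinb3b in GF skin.

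The other clade B serpins of the mouse were read from a list of 18 genes, of which 12 were tested, 5 (Serpinb9c, Serpinb9d, Serpinb9e, Serpinb9f and Serpinb9g) were at 0 in every library and Serpinb1b was below the filter. With MC903, 5 rose and 4 fell in SPF skin, 5 rose and 3 fell in GF skin, and in the difference of responses 2 were higher and 3 lower in GF skin, beside the 73.8%, 68.5% and 17% of all genes called. On library totals 4 rose and 6 fell in SPF skin, and 4 rose and 5 fell in GF skin. The median log2 fold change was 0.00 in SPF skin and 0.30 in GF skin, against -0.10 and -0.07 over all genes, and on library totals it was -0.57 and turned to -0.21.

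Serpinb1a, an inhibitor of neutrophil-type serine proteases, rose by 0.94 on the log2 scale in SPF and 0.43 in GF skin (adjusted p of the difference 0.0112), and the GF value turned to -0.08 (adjusted p = 0.449) on library totals. Serpinb6a, an inhibitor of cathepsin G, rose by 1.28 and 0.75 (adjusted p of the difference 0.00136). Serpinb11, which lies between Serpinb3c and Serpinb7, rose by 2.56 and 1.53, less in GF skin by 1.03 (adjusted p = 0.00206). Serpinb1c had 1574 counts over the 3 SPF ethanol libraries and 8 over the SPF MC903 libraries, a log2 fold change of -7.06, against -2.64 in GF skin (adjusted p of the difference 0.000531). Its SPF value ran from -8.31 without SPF MC903 1 to -6.45 without SPF MC903 2, and the difference of responses from 5.67 to 3.80 in the same fits. These 4 genes therefore had a smaller response in GF than in SPF skin, in the fit on TMM sizes, as Serpinb12 had.

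Serpinb13, or headpin, lies next to Serpinb12 and stood at 7.74 ± 1.27 CPM in SPF ethanol, 2.48 ± 2.52 (0.591 to 5.34) in SPF MC903 and 11.9 ± 2.48 CPM in GF MC903. Its SPF value of -1.62 ran from -2.92 without SPF MC903 1 to -1.14 without SPF MC903 2 and was called in all 20 alternatives. Its responses differed by 2.16 (adjusted p = 0.0456), a call lost in 12 of 19 alternatives, over which the adjusted p ran from 0.000208 to 0.0993 (no filter, DESeq2, and without any 1 library other than SPF MC903 1 and SPF MC903 2). Serpinb6c rose by 2.51 and 1.98 and Serpinb6d fell by 2.17 and 1.06 in SPF and GF skin, with differences that were not called (adjusted p = 0.161 and 0.0616). Serpinb9b rose by 0.77 (adjusted p = 0.0408) and 2.05, and the SPF call was lost in 7 of 20 alternatives, with an adjusted p of up to 0.567 (library totals, the replicate block, the length trend, and without SPF MC903 1, SPF MC903 3, SPF ethanol 2 or SPF ethanol 3). Serpinb10 fell by 0.62 and 0.82, and the SPF call was lost in 4 alternatives, with an adjusted p of up to 0.0753 (the length trend, and without SPF MC903 2, SPF MC903 3 or SPF ethanol 3). Serpinb6b (0.26 and 0.16), Serpinb6e (-2.00 and -1.04) and Serpinb9 (-0.25 and -0.29) were not called in either housing, and on library totals Serpinb6e and Serpinb9 were called as lower in both (Serpinb9 at -0.83 and -0.80). Serpinb6e had 24 counts in SPF ethanol and 4 in SPF MC903, and its SPF value ran from -5.76 without SPF MC903 1 to -1.38 without SPF ethanol 3, called in the first of these fits and with the length trend removed. Serpinb1a, Serpinb1c, Serpinb6a, Serpinb6b, Serpinb6c, Serpinb6d, Serpinb6e, Serpinb9 and Serpinb9b belong to families of close copies, so their split of reads is uncertain too. How alike these copies are was not computed.

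Of 14 proteases and receptors known with these serpins, 13 were tested and Plg, the gene of plasminogen, was below the filter. With MC903, 9 rose and 2 fell in either housing, beside 73.8% of all genes called in SPF skin (35% upward) and 68.5% in GF skin (33.4% upward). On library totals 4 rose and 5 fell in SPF skin and 4 rose and 7 fell in GF skin. Ctsl, the lysosomal cysteine protease cathepsin L, rose by 2.64 on the log2 scale in SPF and 1.67 in GF skin. Prss8, the membrane serine protease prostasin, rose by 2.19 and 1.75, and Plaur, the urokinase receptor, by 2.05 and 1.54. In the difference of responses 4 were lower in GF skin and 0 higher, beside 9.26% and 7.75% of all genes, and on library totals 3 were lower. The 4 were Ctsl (-0.97, adjusted p = 0.000199), Plau (-0.49, adjusted p = 0.0263), Prss8 (-0.44, adjusted p = 0.00555) and St14, the gene of matriptase (-0.39, adjusted p = 0.0102).

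Plau, the gene of urokinase and so of the main target of Serpinb2, had a log2 fold change of 0.55 in SPF skin (adjusted p = 0.000171) and 0.06 in GF skin (adjusted p = 0.555), and its SPF value turned to -0.03 (adjusted p = 0.821) and its GF value to -0.45 (adjusted p = 0.00162) on library totals. The call on its difference was lost in 7 of 19 alternatives, with an adjusted p of up to 0.0659 (library totals, and without SPF ethanol 2, SPF MC903 3, GF ethanol 4, GF ethanol 5, GF MC903 4 or GF MC903 5). Furin, a target of Serpinb8, was 0.22 higher in SPF and 0.19 higher in GF skin and turned to -0.36 and -0.33 on library totals, and the GF call was lost without GF ethanol 1 (adjusted p of up to 0.0577). St14 turned from 0.36 to -0.15 in GF skin on library totals.

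Among all tested genes, the pattern over the 12 libraries nearest to each member was ranked by the root mean square difference of centred log2 CPM. Nearest to Serpinb2 were Socs6 (0.158) and Lrrfip1 (0.174), and to Serpinb12 Sema4g (0.223) and Miat (0.236). Nearest to Serpinb3a were P4ha3 (0.392) and Mettl7a3 (0.413), and to Serpinb3b Eppk1 (0.181) and Abhd1 (0.200). Nearest to Serpinb5 were Cand1 (0.0647) and Txndc11 (0.0664), to Serpinb7 Col9a1 (0.0874) and Acap2 (0.0887), and to Serpinb8 Gosr2 (0.0605) and Ormdl1 (0.0656). The distance grows with the spread of a gene, so it does not rank the members. Sema4g, like Serpinb12, fell by more in SPF skin (-2.14) than in GF skin (-0.33), and Socs6, like Serpinb2, stood at 0.89 and -0.12. The genes were picked for this likeness, so their values are a description.

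The tissue was checked against markers of its cell types. All 7 basal keratinocyte markers (among them Krt5, Krt14 and Trp63) and all 8 suprabasal markers (among them Krt1, Krt10 and Lor) were detected in every group. With MC903, 3 basal markers rose and 3 fell in SPF skin and 2 rose and 2 fell in GF skin, and 6 suprabasal markers rose and 2 fell in SPF skin and 6 rose and 1 fell in GF skin. These counts and the marker counts below stand beside 35% of all genes called upward and 38.8% downward in SPF skin. The shares were 33.4% and 35.1% in GF skin, and 7.75% and 9.26% in the difference of responses. On library totals 1 basal marker rose and 5 fell in each housing, and 6 suprabasal markers rose in SPF and 4 in GF skin. The summed suprabasal level was 19331 to 21281 CPM in SPF ethanol, 27510 to 35193 in SPF MC903, 21053 to 24264 in GF ethanol and 39454 to 43484 in GF MC903. The summed basal level was 11434 to 12046, 28921 to 32936, 13349 to 15190 and 30878 to 31185 CPM in the same order. All 9 macrophage and monocyte markers were tested, and 7 rose and 1 fell in SPF skin and 6 rose and 1 fell in GF skin (4 and 2, and 3 and 3, on library totals). Their sum was 419 to 502 CPM in SPF ethanol, 571 to 693 in SPF MC903, 515 to 553 in GF ethanol and 623 to 711 in GF MC903, and it overlapped between housings with MC903. In the difference of responses 1 of the 9 markers was called, Itgam, with a log2 difference of -0.93 (adjusted p = 0.00599, edgeR). Whether macrophages had a part in the values of Serpinb2 was not tested. No marker of these 3 lists was at 0 in a whole group.

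Markers of other cell types moved with the same contrasts. All 6 fibroblast markers and all 6 skeletal muscle markers fell with MC903 in both housings. They also fell on library totals, where only 23.6% of the calls over all genes were upward in SPF skin and 22.4% in GF skin. The summed fibroblast level was 9937 to 11388 CPM in SPF ethanol, 5136 to 6554 in SPF MC903, 7922 to 9612 in GF ethanol and 4772 to 6044 in GF MC903, and the summed muscle level was 1480 to 1729, 823 to 863, 1915 to 2149 and 1216 to 1249 CPM. Of 4 tested T cell markers, 4 fell in SPF skin and 1 in GF skin (4 on library totals), and 3 had a higher response in GF skin, with sums of 21.8 to 24.3, 9.08 to 10.5, 23.9 to 24.2 and 17.8 to 20.9 CPM. The T cell sums thus stood lowest in SPF MC903, the group in which Serpinb12 was lowest too. This was not particular to T cells, because the skeletal muscle and sebaceous gland sums were also lowest there. Of 6 sebaceous gland markers, 1 rose and 3 fell in SPF skin, 2 rose and 2 fell in GF skin (1 and 4, and 1 and 2, on library totals), and 3 had a higher response in GF skin, with sums of 6836 to 7053, 1741 to 2141, 4795 to 5460 and 2167 to 2565 CPM.

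Of 7 hair follicle markers, 3 rose and 2 fell in SPF skin and 2 rose and 2 fell in GF skin, and their sum with MC903 lay above the ethanol range in both housings, at 76.8 to 79.2, 2330 to 3818, 68.5 to 80.1 and 1131 to 1143 CPM. Tchh, the gene of trichohyalin of the inner root sheath, carried most of it, with 10.9 ± 1.92 CPM in SPF ethanol, 2719 ± 818 in SPF MC903, 9.66 ± 1.37 in GF ethanol and 1018 ± 5.12 in GF MC903. Of 6 tested neutrophil markers, 4 rose and 1 fell in SPF skin and 5 rose and 1 fell in GF skin (3 and 1, and 4 and 1, on library totals), with sums of 13.0 to 17.4, 69.7 to 73.6, 16.04 to 20.2 and 84.4 to 145 CPM. Of 7 mast cell and basophil markers, 3 rose and 2 fell in SPF skin and 4 rose and 2 fell in GF skin (3 and 4, and 3 and 3, on library totals), with sums of 180 to 195, 223 to 274, 205 to 238 and 291 to 319 CPM. Among the markers read, Ly6g was at 0 in all groups but GF MC903 and Cd8a in SPF ethanol.

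SPF MC903 1, the library on which several Serpinb3 results rest, stood at an end of its group for most of these lists. That alone does not mark it as unusual. In a group of 3 a library is often at an end, and the lists are parts of 1 library total. SPF MC903 1 had the highest sum of the 3 SPF MC903 libraries for suprabasal (35193 CPM) and basal (32936) keratinocyte markers and for the other clade B serpins (519). It had the lowest for fibroblast (5136), skeletal muscle (823), hair follicle (2330), sebaceous gland (1741), macrophage (571) and mast cell (223) markers. The part of cell composition and of this library's standing in the results was not tested beyond the fits without it.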

How the data were processed

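Bulk RNA of mouse ear skin was measured in 4 groups of 3 libraries. Per the labels' protocols, RNA came from an RNeasy fibrous tissue kit and libraries from a TruSeq RNA kit run on a HiSeq4000. Per the submitters' processing notes, bcl2fastq 2.20.0, Trimmomatic, HISAT2 2.1.0, StringTie 1.3.4d and the mm10 build were used. The tool settings, the annotation and whether strand was used were not given in the sources used here. Per the file headers, the authors deposited estimated counts, all whole numbers and used as they are, and FPKM values for each gene and library.

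From the estimated counts, edgeR 4.0.16 in R 4.3.3 (filterByExpr, minimum count 10, minimum total 15; TMM scaling; 1 fit of 12 libraries with a coefficient per group) gave quasi-likelihood tests of 5 contrasts, with Benjamini-Hochberg adjustment over 16466 genes and a threshold of 0.05. The common dispersion was 0.0218. FPKM values served for levels between genes. Replicate pairs differed beyond sampling noise (chi-square over degrees of freedom 17.2 to 44.9), so each library counted once. The steps were tested on simulated data. Alternatives were DESeq2 1.42.0, library totals, RLE factors, no filter, separate fits, a replicate block, a length trend, summed Serpinb3 copies and leaving out each library. Symbols and positions came from RefSeq GRCm38.p6, matched for 24462 of 24532 genes.

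The members and lists were chosen with earlier results of these data known. All 9 members were named, every tested clade B serpin, and from other lists the largest changes past the threshold or genes tied to a member by known function, the latter chosen with their values known. Nearest patterns were the 2 tested non-members with the smallest distance.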

Additional observations from a re-analysis of the deposited data

Results flagged for a closer look

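For 3 members the response to MC903 differed between housings by the interaction test in edgeR, beside 17% of all genes tested. Serpinb2 had a log2 difference of -1.34 (GF minus SPF), with all 3 SPF MC903 libraries above, and all 3 GF MC903 libraries below, the range of the ethanol libraries. Serpinb12 had a difference of 2.01, with a lower level in MC903 than in ethanol libraries in both housings and the larger gap in SPF skin. In GF skin alone the changes of Serpinb2 (-0.31, adjusted p = 0.0954) and Serpinb12 (-0.33, adjusted p = 0.242) were not called in edgeR. The CPM of the GF treatments did not overlap for 74% of all genes. Serpinb3b had a difference of 0.99, and this call was kept in 1 of the 12 fits that left out a library, the fit without SPF MC903 1.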

How the results depend on the processing

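Of 669 alternative values for single members, 625 kept their side of the threshold, 22 lost the call and 18 gained it. A further 4 reversed direction with a call before or after. The 625 include values that changed sign without a call in either fit, such as Serpinb3b in GF skin at -0.14 on library totals. The 4 reversals came on library totals: Serpinb5 at -0.25 and Serpinb8 at -0.22 in SPF skin, and Serpinb5 at -0.15 and Serpinb8 at -0.34 in GF skin. The number of members called in the GF response, 3, became 6 on library totals, 6 with only the groups compared and 6 with a length trend removed, 2 with the Serpinb3 copies summed (of 6 tested), and lay between 3 and 5 when 1 library was left out. Over 16466 genes, the GF response had 2795 upward and 9697 downward calls on library totals. With the length trend removed it had 5210 upward and 5593 downward calls. The counts of members called in the other 4 comparisons stayed within 1.5 times. Leaving out 1 library gave 6 to 7 members called in the SPF response, 2 to 4 in the difference of responses and 4 to 5 between housings with MC903. Over all genes, library totals moved the share of upward calls from 45.6% to 59.0% in the difference of responses and from 52.9% to 39.0% between housings with ethanol. The labels do not say that equal replicate numbers share a mouse. Deviations of equally numbered libraries correlated at -0.02 to 0.14 over 6 pairs. A low correlation cannot exclude a shared mouse, so whether the numbers pair the libraries stays unknown. With a replicate block, 7 members were called in the SPF response, 3 in the GF response and 3 in their difference, as without it, and not every library correlated best with its own number. No paired analysis was possible between housings because they share only the number 1. A fit of only the groups compared was not run for the difference of responses, which needs all 4 groups. Low counts kept Serpinb3c, Serpinb3d, Serpinb1b, Plg, Il4 and Il13 out of the tests, and Serpinb6e had 4 counts in SPF MC903.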

Other observations

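The receptor axis of IL-4 and IL-13, the cytokines known to raise SERPINB3 and SERPINB4 in human keratinocytes, was read from a list of 8 genes. The cytokine genes Il4 and Il13 had at most 25 counts over the 3 libraries of any group and were below the filter. Of the 6 tested genes, 3 rose and 2 fell with MC903 in SPF skin, and 4 rose and 2 fell in GF skin, beside 73.8% and 68.5% of all genes called. On library totals 2 rose and 3 fell in SPF skin, and 2 rose and 4 fell in GF skin. Il4ra, the shared receptor chain, rose by 1.88 on the log2 scale in SPF and 1.56 in GF skin, and the difference was not called (adjusted p = 0.301, edgeR). Il2rg, the common gamma chain, rose by 1.03 and 1.05. Tyk2, a receptor-associated kinase, fell by 1.01 and 0.79. Stat6, the transcription factor of the axis, stood at 0.60 and 0.21 and at 0.02 (adjusted p = 0.743) and -0.30 (adjusted p = 0.00122) on library totals, and its response was lower in GF skin, with a log2 difference of -0.39 (adjusted p = 0.00908).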
